A study of Gallus gallus with 7 samples.

Results

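Strand-asymmetric CpG pairs are CpG sites at which the cytosine of one DNA strand was listed as much more methylated than the cytosine of the other strand. A pair was defined as 2 listed positions 1 bp apart on a chromosome, with no listed position directly beside either, and with values in all 7 libraries of the series. Of 166842 such pairs, 7415 (4.44%) differed by at least 40 percentage points between their 2 cytosines in the mean of the 4 non-conditioned libraries, with the same sign in each of those libraries. A further 2194 pairs reached 40 points in the mean without a shared sign, and these were not kept. The choice therefore rested on the non-conditioned values, which are given below as a description, and the 3 conditioned libraries, which the choice did not use, served as the comparison.

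A CpG reads as CpG on both strands, so a methylated site normally carries a methyl group on each of its cytosines. After DNA replication the new strand is unmethylated, and the maintenance methyltransferase DNMT1, guided by UHRF1, copies the mark onto it. A site with the mark on only 1 strand is called hemimethylated. Reduced representation bisulfite sequencing (RRBS) cuts DNA with a restriction enzyme, repairs and reads the ends of short CpG-rich fragments, and treats them with bisulfite, so that an unmethylated cytosine is read as thymine. Each strand is converted separately, and the method thus reports the cytosines of a CpG one by one, from separate reads.

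Per the labels, the libraries held DNA of FACS-sorted microglia (brain-resident macrophages) of the anterior hypothalamus, taken from 10-day-old chicks before any injection of lipopolysaccharide. Pools of 10 to 12 chicks gave 15 to 30 ng of DNA for a library, and sequencing ran for 75 cycles. The 4 non-conditioned libraries (numbered 1 to 4) came from chicks without the heat treatment, and the 3 conditioned libraries (numbered 1-2, 3 and 4) from chicks kept at 39 °C for 24 h on day 3. The labels name no strain, sex or genotype, and do not explain the number 1-2, which was treated as 1 library. No expression values belong to these libraries, so the labelled cell type was not checked against markers. Read numbers were not listed beside the percentages; depth is thus unknown, and values are printed without a counting interval. The site table appears incomplete: it held 1048575 positions on 6 chromosomes, 83.5% of which had a partner 1 bp away.

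The pairs had either cytosine higher in nearly equal numbers and were found on all 6 chromosomes of the table. The first cytosine, at the lower coordinate, was the higher one in 3756 pairs and the second in 3659. By the 1-bp offset the first is the cytosine of the plus strand and the second that of the minus strand; this reading was not checked on a genome. The pairs made up 4.34% of eligible pairs on chromosome 1 (3211 pairs), 4.63% on chromosome 10, 4.44% on chromosome 11, 4.31% on chromosome 12, 4.74% on chromosome 13 and 4.45% on chromosome 14. Over all 166842 eligible pairs the first and second cytosines had nearly the same mean in every library, with first-minus-second differences between -0.07 and 0.13 points.

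In the libraries that chose the pairs, one cytosine was mostly methylated and its partner mostly not. The higher cytosine had a mean of 79.3% in non-conditioned library 1, 80.7% in library 2, 81.8% in library 3 and 81.7% in library 4. The lower cytosine had means of 10.3%, 10.9%, 11.2% and 11.1%. In 3174 pairs (42.8%) the non-conditioned means were at least 80% on one strand and at most 20% on the other. In those libraries this is close to the pattern of a fully hemimethylated site. In 2833 other pairs (38.2%) only the higher cytosine missed its limit, lying below 80%. In 1146 (15.5%) only the lower cytosine did, lying above 20%, and in 262 (3.53%) both did. These classes were cut on the values that chose the pairs, so their shares follow in part from the choice. In the conditioned libraries the 3174 pairs of the first class had means of 74.7% and 5.62%, the higher below its 80% limit. All 3 conditioned libraries kept the sign at 78.3% of them. The higher cytosine varied far more between libraries than the lower: the median SD was 16.7 points against 2.93 among the non-conditioned libraries and 19.2 against 2.64 among the conditioned ones. The lower cytosine lay near the floor, with non-conditioned medians of 4.17% to 4.29%. The higher cytosine also had the coarser values: 61.6% of its non-conditioned values were at exactly 0, 50 or 100%, against 21.3% for the lower. The number of reads behind either cytosine is unknown, and their part in this contrast of SDs was not tested.

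The conditioned libraries showed the same asymmetry at most of the pairs. The higher cytosine, as ordered by the non-conditioned libraries, had a mean of 73.1% in conditioned library 1-2, 60.2% in library 3 and 65.9% in library 4, and the lower cytosine 13.8%, 10.8% and 11.8%. The mean asymmetry, higher minus lower, was 59.3, 49.4 and 54.2 points in these libraries, against 69.0, 69.8, 70.7 and 70.6 points in the libraries that chose the pairs. Thus the asymmetry was lower in all 3 conditioned libraries than in any non-conditioned one, at 54.3 ± 4.91 points (SD, n = 3) against 70.0 ± 0.803 (SD, n = 4), a gap that the choice itself widens and that carries no test. The sign was kept in 93.6% of pairs in conditioned library 1-2, 84.6% in library 3 and 88.8% in library 4.

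**Figure D1:**
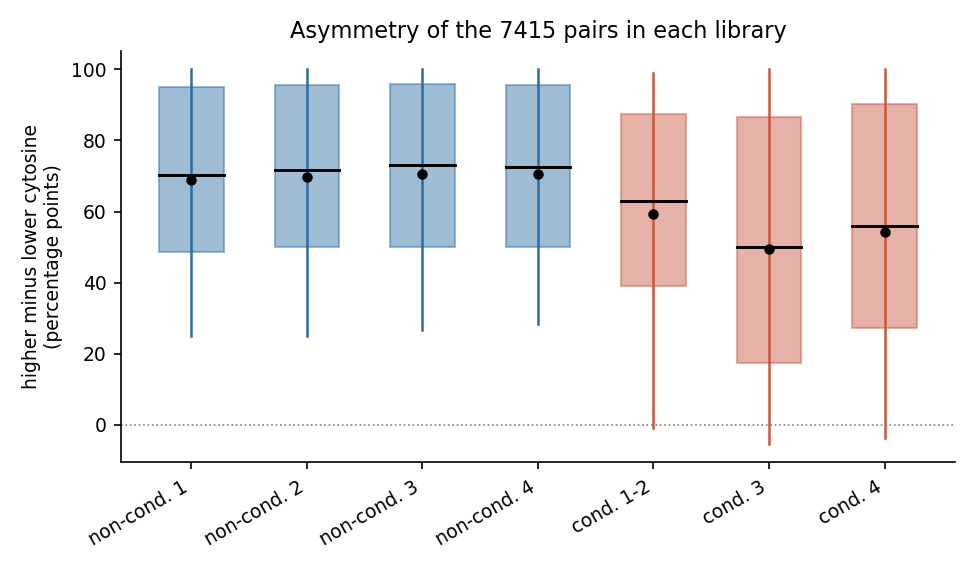
Higher minus lower cytosine (percentage points) of the 7415 pairs in each library. Boxes span the 25th to 75th percentile with a line at the median, thin lines span the 5th to 95th percentile and dots are means; the means lie at 69.0 to 70.7 points in the 4 choosing libraries (blue) and at 49.4 to 59.3 points in the 3 conditioned libraries (red).

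The sign of the non-conditioned mean recurred in all 3 conditioned libraries at 5441 of the 7415 pairs (73.4%). The same count over all eligible pairs with a non-conditioned difference other than 0 was 16.7% of 160423. The conditioned mean reached 40 points with the same sign at 5086 pairs (68.6%), against 4.58% of all such pairs. Each of the 3 conditioned libraries showed 40 points or more with the same sign at 3138 pairs (42.3%), against 2.49% of all such pairs. Every one of the 7 libraries did at 2494 pairs (33.6%), a count that includes the libraries that chose the pairs. The opposite sign in all 3 conditioned libraries occurred at 25 pairs (0.337%, against 5.91% of all pairs). In the conditioned mean 4 pairs reached 40 points the other way (0.0539%, against 0.101% of all pairs). The 160423 pairs of the comparison include the chosen ones and are mostly pairs with little asymmetry. Their conditioned mean lay within 10 points of 0 in 81.5% of cases.

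The share of pairs that kept the sign was larger in classes of larger asymmetry, given here without a test. Pairs of 40 to 50 points, with a non-conditioned mean of 44.7, had a conditioned mean of 29.5 points and kept the sign in all 3 conditioned libraries in 63.4% of cases. Pairs of 90 to 100 points, with a mean of 94.9, had a conditioned mean of 74.8 points and kept the sign in 78.9%. There was no step at the threshold: same-sign pairs of 30 to 40 points, outside the set, had a conditioned mean of 21.3 points and kept the sign in 56.4%. Of the 3 pairs just inside the threshold, the 1 on chromosome 1 at 120648011-120648012 had a conditioned mean of 16.2 points, that on chromosome 10 at 9028000-9028001 had 6.97, and that on chromosome 14 at 2625700-2625701 had -13.8. The 3 pairs just outside, on chromosome 12 at 18310134-18310135, chromosome 11 at 18867710-18867711 and chromosome 13 at 2093272-2093273, had 22.4, 40.2 and 69.3 points.

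**Figure D2:**
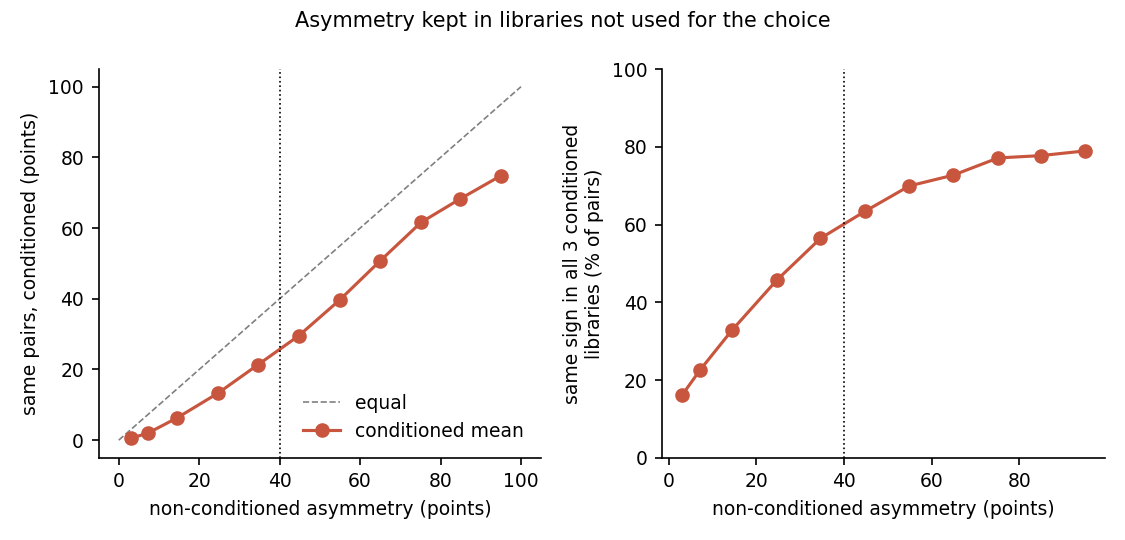
Pairs with 1 sign in all 4 non-conditioned libraries, in classes of non-conditioned asymmetry (x axis, points), with their mean asymmetry in the conditioned libraries (left, points; dashed line, equality) and the percentage with the same sign in all 3 of them (right). Both rise through the 40-point threshold (dotted) without a step, from 21.3 points and 56.4% just below it to 74.8 points and 78.9% in the highest class.

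Because a choice by large values favours values that were large by error, a non-conditioned library left out of the choice is the fairer yardstick for the conditioned ones. When 3 non-conditioned libraries chose the pairs (8207 to 8430 pairs, choosing means of 69.3 to 69.7 points), the library left out had a mean asymmetry of 58.1, 57.8, 58.4 and 59.9 points for libraries 1 to 4 in turn. On the same lists conditioned library 1-2 had 55.9 to 56.4 points, library 3 had 46.0 to 46.6 and library 4 had 50.7 to 51.4. Each conditioned library thus lay below the left-out library on each of the 4 lists, library 1-2 the least. Most of the fall of library 1-2 from the choosing mean was shared by the left-out libraries of the choosing group.

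The share of pairs that kept their sign did not separate the groups. It was 87.3% to 89.3% in the left-out non-conditioned libraries, 91.1% to 91.5% in conditioned library 1-2, 82.1% to 82.4% in library 3 and 86.1% to 87.0% in library 4. Conditioned library 1-2 was above all left-out libraries and the other conditioned libraries below them. A pair with equal values on both strands counted as not keeping the sign. Over all eligible pairs, library 1-2 had 23.0% of first cytosines at exactly 0%, against 30.6% to 39.0% in the other libraries. The part of this difference in the sign share was not tested. The remaining fall in libraries 3 and 4 lay on the more methylated strand. In the left-out libraries the higher cytosine had means of 70.0% to 73.6%; in conditioned library 1-2 it had 71.0% to 71.7%, in library 3 57.8% to 58.7% and in library 4 63.5% to 64.5%. The level of the first cytosine over all 166842 eligible pairs moved the same way: it was 19.4% to 20.4% in the non-conditioned libraries, 21.1% in conditioned library 1-2, 16.9% in library 3 and 18.2% in library 4. Whether the lower level of these 2 libraries as a whole accounts for their smaller asymmetry was not tested.

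With the choice made in the other direction, a larger share of pairs reached 40 points in the other group. The same rule applied to the 3 conditioned libraries kept 6453 pairs, of which 4443 were also in the first list (59.9% of the 7415 and 68.9% of the 6453), 4441 of them with the same sign. At these 6453 pairs the non-conditioned mean reached 40 points with the same sign in 82.5%, and all 4 non-conditioned libraries kept the sign in 74.2%. The 73.4% of the first list asks for the sign in 3 libraries rather than 4, so these 2 shares are unlike counts. When 2 conditioned libraries chose, the 1 left out had 57.4, 49.5 and 55.2 points (libraries 1-2, 3 and 4 in turn), and the non-conditioned libraries had 58.1 to 60.3 points on those lists. The asymmetry was therefore smaller in the left-out conditioned library than in every non-conditioned library on each of the 3 lists as well.

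The asymmetry of single pairs was tested with limma on the values of the 3 conditioned libraries. The test covered 140814 eligible pairs with a mean level of 2% to 98%, with Benjamini-Hochberg adjustment over all of them. That level was a mean over all 7 libraries, so the values that chose the pairs entered this filter. All 7415 chosen pairs passed it. Without the filter 908 of 166842 pairs were called, 749 of them chosen ones. With the filter limma called 1391 pairs (0.988%) at an adjusted p under 0.05, and 0.986% of pairs with the non-conditioned sign. Of the 7415 chosen pairs 1153 were called (15.5%), all with the non-conditioned sign, and 238 called pairs lay outside the set. At an unadjusted p under 0.05 the counts were 66.4% of the chosen pairs and 10.1% of all pairs. The called chosen pairs had a higher cytosine of 96.0% and a lower cytosine of 7.32% in the conditioned libraries. Their median SD between libraries was 4.59 points. The chosen pairs not called had 61.0% and 13.0%, with a median SD of 23.9. Since the test favours a large asymmetry with a small spread in these same libraries, this contrast largely follows from the call. With any 1 conditioned library left out, 0 pairs were called (10934 to 13324 at an unadjusted p under 0.05), so the calls need all 3 libraries.

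The pairs with the largest asymmetry were listed at 100% on one strand and 0% on the other in all 7 libraries. There were 4 of them. In those on chromosome 1 at 58462542-58462543 and 60346615-60346616 and on chromosome 13 at 10281529-10281530, the first cytosine was at 100% and the second at 0% in each of the 7 libraries. In the pair on chromosome 1 at 59650609-59650610 the second cytosine was at 100% and the first at 0% in each. Each had an asymmetry of 100 points with a standard error of 4.38 and an adjusted p of 0.0202 (limma, conditioned libraries). The conditioned values of each pair did not vary at all. This standard error and p therefore rest on the spread that limma takes over from other pairs. The 4 pairs sat in little-methylated surroundings. The mean of the other positions within 100 bp was 2.62%, 6.11%, 5.56% and 6.56%, so the methylated strand was the one that stood apart. No gene annotation of the build of these coordinates (galGal5) was used here.

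The other 6 pairs named for the largest conditioned asymmetry were at 100% and 0% in all 3 conditioned libraries. They departed from 0% on the lower strand in 1 or 2 non-conditioned libraries. Ties in the conditioned asymmetry were broken by the larger non-conditioned one, so the values that chose the pairs also helped to pick these. At the pair on chromosome 1 at 49300383-49300384 the lower cytosine was at 0% in non-conditioned libraries 1, 2 and 3 and at 7.14% in library 4. At chromosome 1, 193936213-193936214, it was at 0% in libraries 1 to 3 and at 20% in library 4, and at chromosome 1, 129773058-129773059, it was at 16.7% in library 3 and at 0% in libraries 1, 2 and 4. In all 3 pairs the higher cytosine stayed at 100% in all 7 libraries. The remaining 3, on chromosome 13 at 10683273-10683274 and on chromosome 1 at 53676553-53676554 and 172272071-172272072, had lower cytosines of 0% to 13.3% in the non-conditioned libraries.

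The conditioned mean had the opposite sign at 174 of the 7415 pairs (2.35%), against 37.2% of all eligible pairs with a non-conditioned difference other than 0. The pair on chromosome 1 at 194467799-194467800 went furthest the other way. Its second cytosine was at 100%, 50%, 100% and 100% in the non-conditioned libraries and at 0%, 66.7% and 28.6% in the conditioned ones. Its first cytosine was at 50%, 33.3%, 0% and 66.7% against 100%, 70.0% and 100%. The strands exchanged order in each conditioned library, but the conditioned asymmetry of -58.3 points varied by 49.7 (SD, n = 3) and its adjusted p was 0.542.

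At chromosome 13, 17656755-17656756, the second cytosine went from 60%, 100%, 71.4% and 100% to 66.7%, 0% and 22.2%, and the first from 0% in all 4 non-conditioned libraries to 50%, 100% and 100%. Library 1-2 kept the non-conditioned order and libraries 3 and 4 had the opposite one (adjusted p = 0.573, limma). The pair on chromosome 10 at 8889376-8889377 had a conditioned mean of -43.9 points, and those on chromosome 11 at 17635817-17635818 and chromosome 1 at 112367758-112367759 had -40.1 and -38.9. These 5 pairs had adjusted p-values of 0.518 to 0.615 (limma), so that none passed the test.

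Exact values of 0, 50 and 100% were common at the higher cytosine. In the non-conditioned libraries 50.9% of its values were listed at 100% and 10.7% at 50%, whereas 4.58% of the values of all eligible cytosines were at 100% and 2.04% at 50%. The choice took this cytosine for high non-conditioned values, so its larger share at 100% follows in part from the choice. No comparison was made with cytosines of a similar level. In the conditioned libraries 34.7% of its values were at 100%, 9.54% at 50% and 8.57% at 0%. The lower cytosine was at 0% in 20.2% of non-conditioned and 18.0% of conditioned values, fewer than the 31.5% and 32.7% of all eligible cytosines. The part of read depth in these exact values was not tested, since the files give no depth.

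At most pairs it was the more methylated strand that departed from the surroundings. At least 5 other common positions within 100 bp were available for 6628 pairs (89.4%), and at 6234 of these (94.1%) the lower cytosine was the one nearer to their mean. The median of that mean was 7.29% for the asymmetric pairs and 5.89% for all eligible pairs. In surroundings of 0 to 20% the lower cytosine was nearer at 100% of pairs, which largely follows from the gap that the choice required. The cytosine means used here cover all 7 libraries, including those that chose the pairs. Asymmetric pairs made up 3.40% of eligible pairs where the surroundings were at 0 to 5%, 7.05% where they were at 20 to 40%, and 0.902% where they were at 80 to 100%. In methylated surroundings the relation turned. The lower cytosine was nearer in 35.4% of pairs at 60 to 80% and in 2.08% of the 48 pairs at 80 to 100%. At 80 to 100% the lower cytosine, at a mean of 40.8% over the 7 libraries, was the one that stood apart. That too largely follows from the gap that the choice required.

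Listed positions were unevenly placed around the pairs. Within 40 bp on the 3′ side of the higher cytosine, read along its own strand, 24.6% of the pairs had a listed position without a partner on the other strand, against 8.29% on the 5′ side. Over all eligible pairs, oriented by whichever cytosine was higher, the shares were 12.6% and 11.2%. Of the listed positions themselves, 9.24% on the 3′ side and 1.23% on the 5′ side had no partner, against 2.54% and 2.05% over all eligible pairs. Fewer positions were listed near the asymmetric pairs, with a median of 34 within 100 bp against 43 for all eligible pairs. The share of positions listed on 1 strand only was thus larger on the 3′ side of the higher cytosine than on its 5′ side.

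Methylation of the neighbouring pairs was also uneven. On the 3′ side, pairs 2 to 9 bp away had a mean of 32.7% on the strand of the higher cytosine and 36.2% on the opposite strand in the non-conditioned group, with 30.0% and 36.0% in the conditioned group. At 10 to 19 bp the non-conditioned means were 19.5% and 26.0%, and from 30 bp on they lay at 11.5% to 13.8%. On the 5′ side the strand of the higher cytosine stayed at 10.6% to 13.3% throughout. The opposite strand was above it in every class from 20 bp on. It had 21.8% at 30 to 39 bp (19.6% in the conditioned libraries), 18.8% at 40 to 49 bp, 15.3% at 50 to 59 bp and 13.7% at 60 to 69 bp, then 21.8% at 70 to 79 bp (20.6%) and 13.5% at 80 to 89 bp. These positions include other asymmetric pairs.

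**Figure D3:**
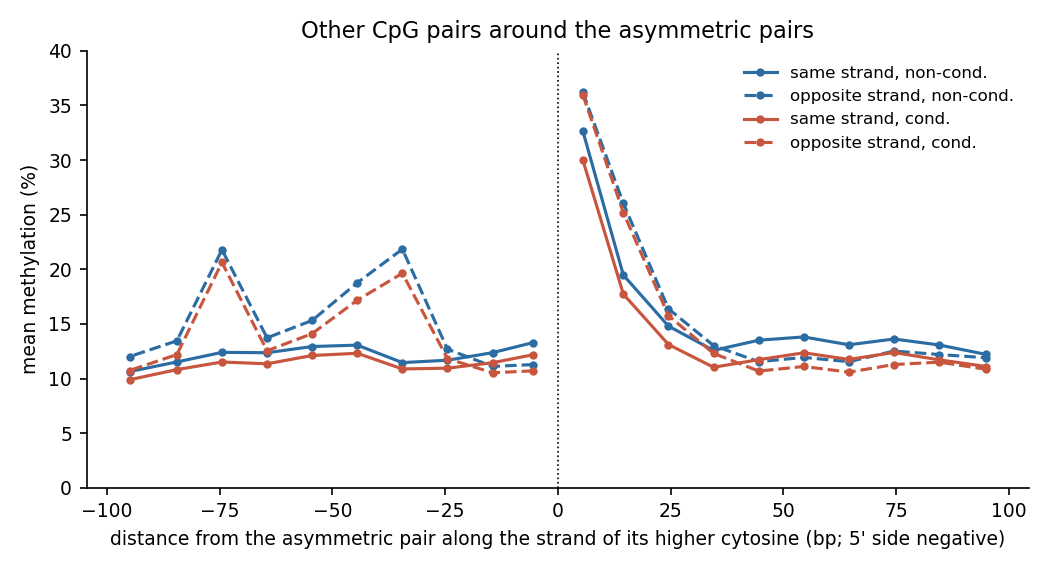
Mean methylation (%) of other CpG pairs around the asymmetric pairs, by distance along the strand of the higher cytosine (bp, 5′ side negative). Solid lines are the strand of the higher cytosine and dashed lines the opposite strand, in blue for the 4 non-conditioned and red for the 3 conditioned libraries; both strands are high just 3′ of the pair, and the opposite strand has peaks at 30 to 39 and 70 to 79 bp on the 5′ side in both groups.

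Neighbouring asymmetric pairs were arranged by strand in a way that depended on their distance. Neighbours were called outward where the left pair was higher on its second cytosine and the right pair on its first, inward where the order was the opposite, and same where both pairs were higher on the same strand. At 2 to 19 bp, 112 of 191 neighbours were inward, 78 the same and 1 outward. At 30 to 39 bp, 321 of 358 (89.7%) were outward, and at 40 to 49 bp 170 of 213 were. At 200 to 299 bp, 23.4% of 453 neighbours were outward.

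The change was abrupt. The outward neighbours numbered 3 at 29 bp, 29 at 30 bp and 45 at 31 bp, fell gradually from there, and rose again to 95 at 73 bp and 77 at 74 bp, with 13 at 72 bp and 8 at 75 bp. At 73 to 74 bp, 172 of 178 neighbours (96.6%) were outward. The arrangement entered neither the choice of pairs nor the sign of a single pair. The second peak lies just below the 75 read cycles that the labels give; the part of read or fragment ends in the asymmetry was not tested.

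**Figure D4:**
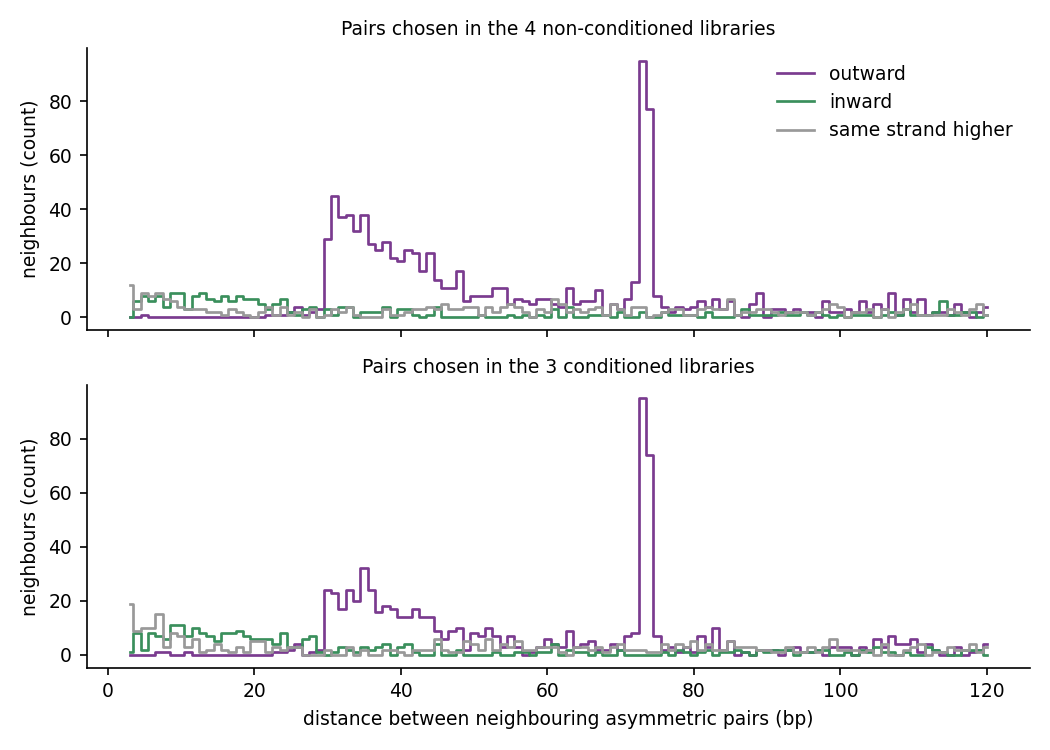
Number of neighbouring asymmetric pairs (y axis) by the distance between them (x axis, bp, in steps of 1 bp), for the 7415 pairs chosen in the non-conditioned libraries (top) and the 6453 chosen in the conditioned libraries (bottom). In both, outward neighbours (purple) are few below 30 bp, step up there and peak at 73 and 74 bp, whereas inward neighbours (green) and neighbours with the same strand higher (grey) prevail below 30 bp.

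The list chosen in the conditioned libraries had the same arrangement. Of its neighbours at 30 to 39 bp, 215 of 245 (87.8%) were outward, and at 73 to 74 bp 169 of 172 (98.3%) were. Over 30 to 80 bp, 618 of 789 neighbours (78.3%) were outward there, against 847 of 1037 (81.7%) in the list chosen in the non-conditioned libraries. The lists share 4443 pairs and so are not independent of each other.

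Pairs with an outward partner kept the sign more often than pairs without one, a difference that was not tested. Such a partner lay at 30 to 80 bp for 1705 pairs (23.0%), and 81.3% of these kept the sign in all 3 conditioned libraries, against 71.0% of the 5710 pairs without one. The 346 pairs with an outward partner at 73 to 74 bp stood out by their mean asymmetry, which was 79.3, 77.1, 76.6 and 79.3 points in non-conditioned libraries 1 to 4 and 74.1, 75.9 and 74.8 points in conditioned libraries 1-2, 3 and 4. All 3 conditioned libraries kept the sign at 97.7% of them. In the conditioned libraries limma called 178 of the 346 (51.4%), against 15.5% of all chosen pairs and 0.988% of all tested pairs. The conditioned libraries were close to each other here, whereas over all 7415 pairs they ranged from 49.4 to 59.3.

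The 1003 pairs with an outward partner at 30 to 50 bp behaved otherwise. Their mean asymmetry was 70.5, 72.0, 72.0 and 72.3 points in the non-conditioned libraries and 64.8, 50.7 and 56.9 points in the conditioned ones. The sign was kept in all 3 conditioned libraries at 77.0% of them. Of these pairs 14.5% were called, near the 15.5% of all chosen pairs (0.988% of all tested pairs). Here conditioned libraries 3 and 4 were again well below library 1-2. An inward partner at 30 to 80 bp was found for 134 pairs, of which 79.1% kept the sign in all 3 conditioned libraries. This was close to the 81.3% of pairs with an outward partner at that distance, so the larger share was not particular to outward partners.

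The distances of 30 bp and of 73 to 74 bp also stood out over all eligible pairs, but the short distances differed from those of the chosen pairs. The eligible pairs include the chosen ones with the values that chose them, so this is no separate result. A profile without the chosen pairs was not made. For every 2 eligible pairs at a given distance, the first-minus-second difference of the left pair was subtracted from that of the right pair and divided by 2, so that a value above 0 means outward on balance. At 3 to 28 bp the values were outward on balance, at 1.53, 1.54, 1.55 and 1.59 points in the non-conditioned libraries against 1.51, 1.14 and 1.26 in conditioned libraries 1-2, 3 and 4, whereas the chosen pairs at 2 to 19 bp were mostly inward. At 30 to 39 bp the mean over 102650 combinations was 1.80, 1.82, 1.84 and 1.81 points in the non-conditioned libraries and 1.77, 1.34 and 1.48 points in the conditioned ones. At 73 to 74 bp, over 15746 combinations, it was 2.21, 2.04, 2.02 and 1.93 points against 1.93, 1.98 and 1.95 points. At 75 to 120 bp it was 0.881 ± 0.0284 points (SD, n = 4) against 0.728 ± 0.0955 (SD, n = 3). All 7 libraries thus had a positive value in each of these ranges, and a peak at 73 to 74 bp.

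**Figure D5:**
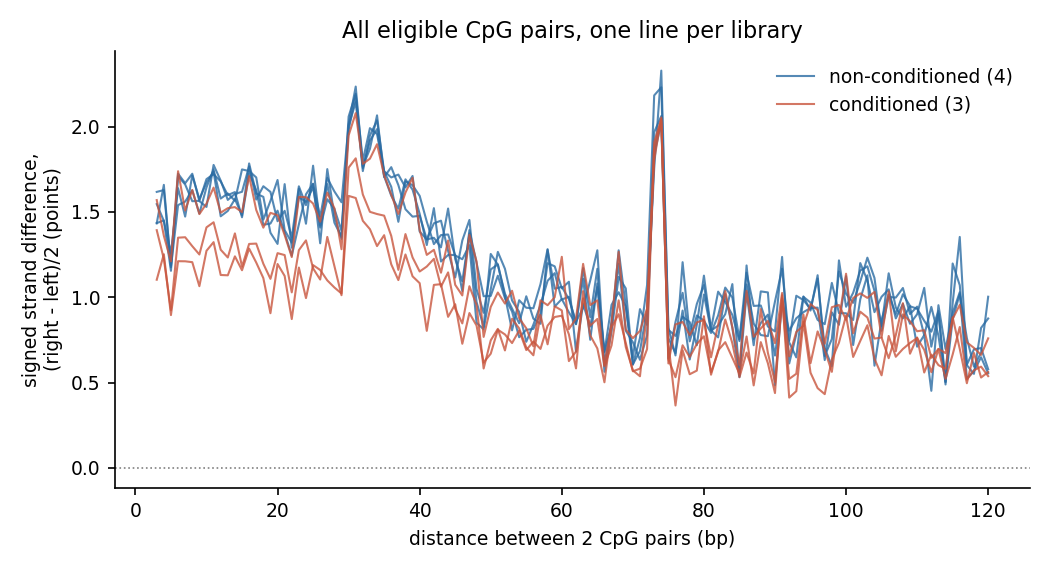
Mean signed strand difference, (right minus left)/2 in percentage points, of any 2 eligible CpG pairs against the distance between them (bp), with 1 line per library (4 non-conditioned in blue, 3 conditioned in red). Each line steps up at 30 bp and has a sharp peak at 73 and 74 bp, where the group means are 2.05 and 1.95 points.

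The conditioned libraries were all below the non-conditioned ones in 5 of the 6 distance ranges, for which the exact two-sided permutation test over the 7 libraries gave p = 0.0286, the smallest it can give, or 0.0343 after Benjamini-Hochberg adjustment over the 6. At 73 to 74 bp the groups overlapped, with 1.93 points in non-conditioned library 4 below the 1.98 and 1.95 points of conditioned libraries 3 and 4, and the exact p was 0.2. This comparison was added after the values had been seen, so its p-values are given as a description. The 6 ranges draw on the same 7 libraries and the same eligible pairs, so they are not independent of each other. The difference was small for conditioned library 1-2, which had 1.77 points at 30 to 39 bp against 1.80 for the lowest non-conditioned library, and larger for libraries 3 and 4, the same libraries that had the lower level over all pairs.

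The level of a pair, the mean of its 2 cytosines, was compared between the groups with limma on log2((fraction + 0.05)/(1 - fraction + 0.05)) over the same 140814 pairs. It called 0 pairs (0%) at an adjusted p under 0.05, and 7655 (5.44%) at an unadjusted p under 0.05, 1.23% higher and 4.21% lower in the conditioned libraries. Of the chosen pairs 957 (12.9%) were at an unadjusted p under 0.05, 54 higher and 903 lower. Centring every library at its own median made that split 177 higher and 577 lower, and turned the split over all pairs from 1732 higher and 5923 lower to 5817 higher and 1945 lower. The median log2 difference was -0.17 over all pairs and -0.34 over the chosen ones, and with that centring 0.13 and -0.05. As the chosen pairs were taken for high non-conditioned values on one strand, their lower conditioned level follows in part from the choice and is given as a description.

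At the 5 chosen pairs with the smallest p for the level, the methylated strand was listed at 0% in all 3 conditioned libraries. At chromosome 1, 166202748-166202749, the second cytosine stood at 100% in each non-conditioned library (4 of 4) and at 0% in each conditioned library (3 of 3), and the first was at 0%, 20%, 14.3% and 0% against 0% in each. At chromosome 10, 11205644-11205645, the first cytosine was at 100% in all 4 and at 0% in all 3, with the second between 0% and 3.85% throughout. The non-conditioned values of these pairs are among those that chose them, so the values are a description with no test.

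The remaining 3, on chromosome 1 at 78650368-78650369, 24895214-24895215 and 132343753-132343754, had a first cytosine of 50% to 100% in the non-conditioned libraries and of 0% in each conditioned library. Their lower cytosines stayed at or below 8.93% in every library. These are the extremes of 7415 pairs, chosen by the same libraries that were high.

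Asymmetric pairs also lay close together in places. The densest stretch, on chromosome 10 at 2160694-2160752, held 7 of them, all with the second cytosine higher. At each of its first 3 pairs the second cytosine was listed at exactly 100%, 66.7%, 20% and 100% in the non-conditioned libraries and at 80%, 0% and 100% in conditioned libraries 1-2, 3 and 4. At each of the next 3 it was at 100%, 66.7%, 100% and 100% against 100%, 0% and 100%. The lower cytosines of the 7 pairs were at 0% to 18.8%. Conditioned library 3 was at 0% at 6 of the 7 pairs while libraries 1-2 and 4 were at 80% or above there, so that these pairs did not vary separately.

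The stretch on chromosome 1 at 393356-393515 held 5 pairs and both orders. The second cytosine was higher at 393356-393357, 393436-393437 and 393514-393515 and the first at 393398-393399 and 393506-393507. Non-conditioned asymmetries were 47.8 to 67.0 points and conditioned ones 39.1 to 67.2. At 393356-393357 the second cytosine was at 100%, 94.1%, 88.9% and 100% against 100%, 100% and 81.8%, and the first at 32.3%, 31.7%, 32.1% and 39.7% against 45.2%, 23.4% and 41.2%. The groups overlapped on both strands, and the asymmetry had an adjusted p of 0.156 (limma).

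Few of the pairs lay in the segments that the authors compared between groups. Of the 7415 pairs 1190 (16.0%) lay inside a segment of the authors' deposited table, against 27.5% of eligible pairs, and 1048 of the 11570 segments on these chromosomes held at least 1. Of the 78 segments with a deposited q-value under 0.05, 5 held 1 asymmetric pair each. One of these, on chromosome 1 at 121633-121757, had group means of 9.65% (non-conditioned) and 3.61% (conditioned) and a q-value of 0.0296 in the authors' deposited table. Its asymmetric pair, at 121703-121704, had a first cytosine of 66.7%, 100%, 88.9% and 87.5% against 47.8%, 73.9% and 52.0%, and a second cytosine of 8%, 15.4%, 9.09% and 5.26% against 14.3%, 0% and 0%. The groups overlapped on both strands, and the pair was 1 of the sites behind the mean of that segment, which covers 27 positions in the authors' deposited table. In the others of the 5 segments the higher cytosine of the asymmetric pair was at 66.7% to 100% in both groups.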

How the data were processed

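Per the submitters' processing notes, reads were handled with Trimmomatic, Bismark 0.22.3, Bowtie and HOMER on the build galGal5; the minimum coverage, the trimming of read ends and the caller's settings are not given in the sources used here. The site table deposited by the authors gives percent methylation per cytosine and library, with no scaling between libraries and no read counts. The segment table deposited by the authors gives group means in percent and p-values and q-values per segment, per the file headers; its difference and CpG-number columns were not reported. Coordinates are galGal5, counted from 1; no genome of that build was used here.

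Pairs were formed from rows at adjacent positions, with no row at the positions directly before and after and values in all 7 libraries. Asymmetry is the first minus the second cytosine in percentage points; higher and lower follow the order in the choosing libraries. Across cytosines of eligible pairs, 2 libraries correlated at Pearson's r of 0.836 to 0.903 and shared 17.0% to 26.0% of exact values. No library was thus a copy of another. Conditioned library 1-2 shared the fewest, at 17.0% to 17.9% with any other library, against 20.9% to 26.0% among the rest. Replicates are pooled libraries, and p-values cover only the spread between them. For a single pair limma also draws on the spread at the other pairs.

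Asymmetry (3 conditioned libraries, intercept only) and pair level (all 7 libraries, group term) were fitted with limma 3.58.1 in R 4.3.3 with a mean-variance trend, over pairs with a mean level of 2% to 98%, with Benjamini-Hochberg adjustment and a threshold of 0.05. In both fits the mean level of the 2% to 98% filter was taken over all 7 libraries. For asymmetry the trend was taken over the pair level in the conditioned libraries. For the level an offset of 0.05 was added, so log2 differences near 0% or 100% are shrunk. Both fits were run on simulated data with normal, uncapped noise. The listed percentages are capped and often coarse, so that run does not bear on the number of pairs called here. Other values used Python 3.11.15, numpy 2.4.6, pandas 2.3.3, scipy 1.17.1 and matplotlib 3.10.9.

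The pairs and the tests were chosen with earlier results of these data known. Named pairs are the 5 of each strand order with the largest conditioned asymmetry, the 5 furthest the other way, the 3 nearest either side of the threshold, the 5 with the smallest p for the level and the 2 densest stretches of 200 bp. Ties in the conditioned asymmetry were broken by the larger non-conditioned asymmetry and then by chromosome and position. The distances between pairs, the surroundings and the pair in a deposited segment were looked at after values had been seen. Alternatives covered the threshold, the isolation rule, the level filter, the trend, the scale and offset, centring, the choosing group, each library left out and a replicate block.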

Additional observations from a re-analysis of the deposited data

Results flagged for a closer look

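In 5 of 49 sets of values of the 4 non-conditioned libraries, 1 library stood apart from the others. Chance would give about 2.45 for independent sets of values that are neither capped nor rounded. Most sets were named pairs, many with values capped at 100% and with values that chose them. No conclusion is therefore drawn from the count. At the pairs on chromosome 1 at 49300383, 129773058 and 193936213, 3 of the 4 non-conditioned libraries had an asymmetry of exactly 100 points and 1 had less, so that the gap took up the whole range (ratio 1). The odd values came from the lower cytosine, at 7.14% in library 4, 16.7% in library 3 and 20% in library 4. At the pair at 120648011 non-conditioned library 2 was at 33.3% and 20% on its 2 strands, with a ratio of 0.909. At the pair at 393514 non-conditioned library 1, at 80% on one strand and 19.5% on the other, had a ratio of 0.901. The pairs at 49300383, 129773058 and 193936213 were among those named for their conditioned asymmetry and 120648011 for lying just inside the threshold.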

How the results depend on the processing

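Thresholds of 30, 50 and 60 points gave a conditioned mean asymmetry of 48.5, 59.4 and 63.9 points, and at 60 points the conditioned mean reached the threshold in 60.2% of pairs. Requiring 5 bp free of listed positions left 3462 pairs, of whose neighbours at 30 to 80 bp 85.8% were outward. Choosing in the conditioned libraries gave 82.5% of pairs past the threshold in the other group, 63.1 points there, and 78.3% outward. The outward share under other settings was added after seeing the data. With each non-conditioned library left out in turn the list held 8207 to 8430 pairs and the outward share was 79.1% to 79.4%; leaving out a conditioned library changes neither. With each library of either group left out in turn, the sign was kept in 69.1% to 84.2%. The upper end, without conditioned library 3, asks for the sign in 2 libraries only. Under the same settings the conditioned mean passed in 63.6% to 71.7% and the mean asymmetry was 50.9 to 56.7 points. The asymmetry fit called 908 pairs (749 chosen ones) with no level filter and 847 (680) on a log2 ratio scale. Leaving out each conditioned library, with 1 residual degree of freedom left, gave 0 calls; over all libraries left out, calls among chosen pairs ran from 0 to 1210. The level fit called 2 pairs without the trend (2 chosen), 1 with an offset of 0.01 (1 chosen) and 3 with median centring (1 chosen), and 0 to 0 with each library left out. Among the named pairs, 30 asymmetry values under an alternative no longer passed the threshold, 1 newly passed and 197 kept their side; for the level 4 newly passed and 528 kept their side. The cause of these changes was not tested.

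Both groups have numbers 3 and 4. Deviations of same-numbered libraries correlated at -0.001 and -0.003, and those of differently numbered ones at -0.030 to 0.038. The shared numbers thus showed no shared deviation, but these values cannot exclude a shared batch. A replicate block on these 4 libraries called 0 pairs (9952 at an unadjusted p under 0.05, and 14752 without the block).

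Depth is unknown, so the counting error of a single value, also at 0%, 50% or 100%, cannot be stated. The strands were read from the 1-bp offset. Sequence context, genes and restriction sites around the pairs were not used here. The site table appears to end partway through chromosome 14. Every called chosen pair had at least 45.9 points in the conditioned mean.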
